A study of Mus musculus with 8 samples.

Results

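The genes described here are 39 interferon-stimulated genes of the mouse, picked by symbol from a list of genes that type I or type II interferon induces and read from a table that lists 32849 gene symbols. The rule names symbols and uses no measured value, but the list was drawn up with earlier results of these data known. All 39 symbols were in the table, and all 39 were among the 14864 genes that passed the filter on low counts and were tested. RNA was sequenced from whole esophagus tissue of healthy mice in 8 libraries, 4 labelled MGL KO and 4 labelled WT. The study asked what the loss of monoacylglycerol lipase (MGL), the enzyme that breaks down the endocannabinoid 2-arachidonoylglycerol, does to the esophagus in the absence of disease. The deletion of Mgll was global, the MGL KO mice were bred in-house with WT littermates, and the methods name no other allele and no treatment for either group. The study's mice were of both sexes and adult, but the labels give no age or sex for these libraries. The labels number the libraries of each group but do not say that each came from a different mouse, so p-values measure the spread between these libraries.

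Interferons are secreted proteins that cells release when they sense foreign nucleic acid or, for type II interferon, when T cells and natural killer cells are activated. Type I and type III interferons act through the kinases JAK1 and TYK2 on a complex that holds STAT2 and IRF9 and binds the interferon-stimulated response element (ISRE) upstream of its targets. Type II interferon acts through JAK1 and JAK2, and its targets carry gamma-activated sites (GAS). In a healthy epithelium these genes are transcribed at a low level, and leukocytes, endothelium and epithelium can all contribute to it. In whole tissue, fewer cells of a type and less RNA per cell cannot be told apart.

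The 2 elements were looked for in the RefSeq promoter windows, which run from 250 bases before to 50 bases after each annotated start, and which were found for 29 of the 39 genes. The ISRE core searched for was TTTC, any 2 bases and TTTC again, and the GAS was TTCNNNGAA, each on both strands. The ISRE core was present in 16 of the 29 genes (55.2%), against 3.99% of the 27025 genes in the table. The GAS was present in 9 of the 29 genes (31.0%), against 9.55% of all genes. Both were present in Bst2, Gbp7, Igtp and Oas1a. Neither was present in Ifi44, Irf7, Irf9, Oasl1, Oasl2, Psmb9, Tap1 and Xaf1. Such a match is a description of the letters, and the absence of one says nothing about the factor. Dhx58, Zbp1, Oas2, Usp18, Mx1, Mx2, Ifi27l2a, Rtp4, Gbp4 and Iigp1 were not in the table.

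The stretches just upstream of 4 genes are shown because they hold the elements through which interferon is known to act on them. They are printed 5′ to 3′ on the strand of the gene, from RefSeq, and each was placed on GRCm39 by an exact match. Capitals mark the ISRE core on either strand in Ifit1, Ifit3 and Isg15, where overlapping matches run together, and the GAS in Irf1. Ifit1 lies at chr19:34618161-34618270 (plus strand), Ifit3 at chr19:34560763-34560898 (plus strand), Isg15 at chr4:156285304-156285413 (minus strand) and Irf1 at chr11:53660702-53660811 (plus strand). In Isg15 the cores read GAAA, any 2 bases and GAAA, which is the same element on the other strand.
Ifit1: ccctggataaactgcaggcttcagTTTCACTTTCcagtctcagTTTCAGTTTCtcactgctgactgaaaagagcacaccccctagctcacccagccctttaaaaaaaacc
Ifit3: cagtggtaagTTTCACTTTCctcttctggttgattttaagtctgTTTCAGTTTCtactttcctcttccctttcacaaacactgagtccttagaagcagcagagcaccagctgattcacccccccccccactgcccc
Isg15: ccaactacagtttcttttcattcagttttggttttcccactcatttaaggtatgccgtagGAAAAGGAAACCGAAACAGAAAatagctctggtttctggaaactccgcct
Irf1: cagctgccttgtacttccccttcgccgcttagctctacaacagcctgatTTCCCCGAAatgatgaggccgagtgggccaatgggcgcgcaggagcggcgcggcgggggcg

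Short stretches of 30 bases around the ISRE core (capitals) are shown for 6 more genes, to set the guanylate-binding protein genes beside the immunity-related GTPase Igtp, the IFIT gene Ifit3b and the OAS gene Oas1a. They lie at chr3:142326355-142326384 (Gbp2), chr3:142265750-142265779 (Gbp3), chr3:142236034-142236063 (Gbp7), chr11:58090338-58090367 (Igtp) and chr19:34585159-34585188 (Ifit3b), all on the plus strand of GRCm39, and at chr5:121045589-121045618 on the minus strand (Oas1a).
Gbp2: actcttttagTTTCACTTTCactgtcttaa
Gbp3: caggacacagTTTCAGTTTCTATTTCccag
Gbp7: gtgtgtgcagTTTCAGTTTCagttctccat
Igtp: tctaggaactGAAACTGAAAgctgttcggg
Ifit3b: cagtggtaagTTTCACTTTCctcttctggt
Oas1a: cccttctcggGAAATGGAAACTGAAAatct
The 3 GBP genes and Ifit3b read the core on the strand of the gene, and Igtp and Oas1a read it on the other strand. Upstream of their starts Ifit3 and Ifit3b matched at 188 of 218 aligned bases (86.2%), and the printed Ifit3b stretch is the same as the first bases of the printed Ifit3 stretch. These neighbours lie 18.9 kb apart, their transcribed sequences were not compared, and their counts are uncertain to the extent that the counting could split reads between them. The 16 genes with the ISRE core had a median log2 fold change (MGL KO minus WT) of -0.26, and the 9 with the GAS had a median of -0.22, beside 0.02 for all tested genes. The 8 genes with neither element had a median of -0.28.

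Levels below are in normalized CPM, the share of a gene in the counts of its library brought to a common total and scaled by TMM factors, and a level in several libraries is given in the order of the replicate numbers. Total counts lay between 13479069 and 17090152 per library, and a count of 0 allows a level of up to 3 counts, or 0.167 to 0.271 normalized CPM. That limit covers counting error only. Mgll, the deleted gene, lay between 12.6 and 15.97 in MGL KO and between 66.6 and 88.3 in WT (log2 fold change -2.57, SE 0.13, adjusted p = 1.33e-04, edgeR's quasi-likelihood test, Benjamini-Hochberg), which matched the labels of all 8 libraries. The esophageal keratins Krt5, Krt14, Krt4 and Krt13 were high in every library, and the muscle marker sum was between 24044 and 63114. Libraries WT 1 and MGL KO 4 stood apart: the summed B and plasma cell markers were 828.3 in WT 1 and 218.4 in MGL KO 4 against 4.14 to 30.0 in the other libraries, and the summed markers of airway ciliated and secretory cells were 5858 in MGL KO 4 against 8.12 to 50.8. The counts and medians of the members are therefore also given without them, and so are the genes whose values rest most on 1 of them. MGL KO 2 also differed from the rest: it was the highest library for 27.4% and the lowest for 29.4% of all tested genes. Its muscle marker sum was the highest and its squamous marker sum (3945) the lowest, and WT 3 came next on both, at 50668 and 4537. The members without MGL KO 2 are given as well.

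The interferon-stimulated genes made up between 0.026% and 0.066% of the counts of a library. None of the 39 differed between MGL KO and WT after adjustment over all tested genes (0.0471% of all tested genes passed), and the lowest adjusted p of a member was 0.51 (edgeR's quasi-likelihood test, Benjamini-Hochberg). At an unadjusted p under 0.05, 1 member (Gbp4) was lower in MGL KO and none was higher, beside 4.29% and 4.35% of all tested genes. The exact test of edgeR, DESeq2 and limma-voom also gave no member an adjusted p under 0.05. The fitted log2 fold change lay below 0 in 28 of the 39 genes (71.8%), beside 47.0% of all tested genes, and below -0.5 in 9 of them (23.1%), beside 7.62%. The median over the members was -0.26, beside 0.02 over all tested genes. The 95% interval of the difference included 0 for 38 of the 39 genes. The members also varied more within a group than most genes did: the median SD of log2 CPM between libraries of a group was 0.54, against 0.28 over all tested genes.

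**Figure D1:**
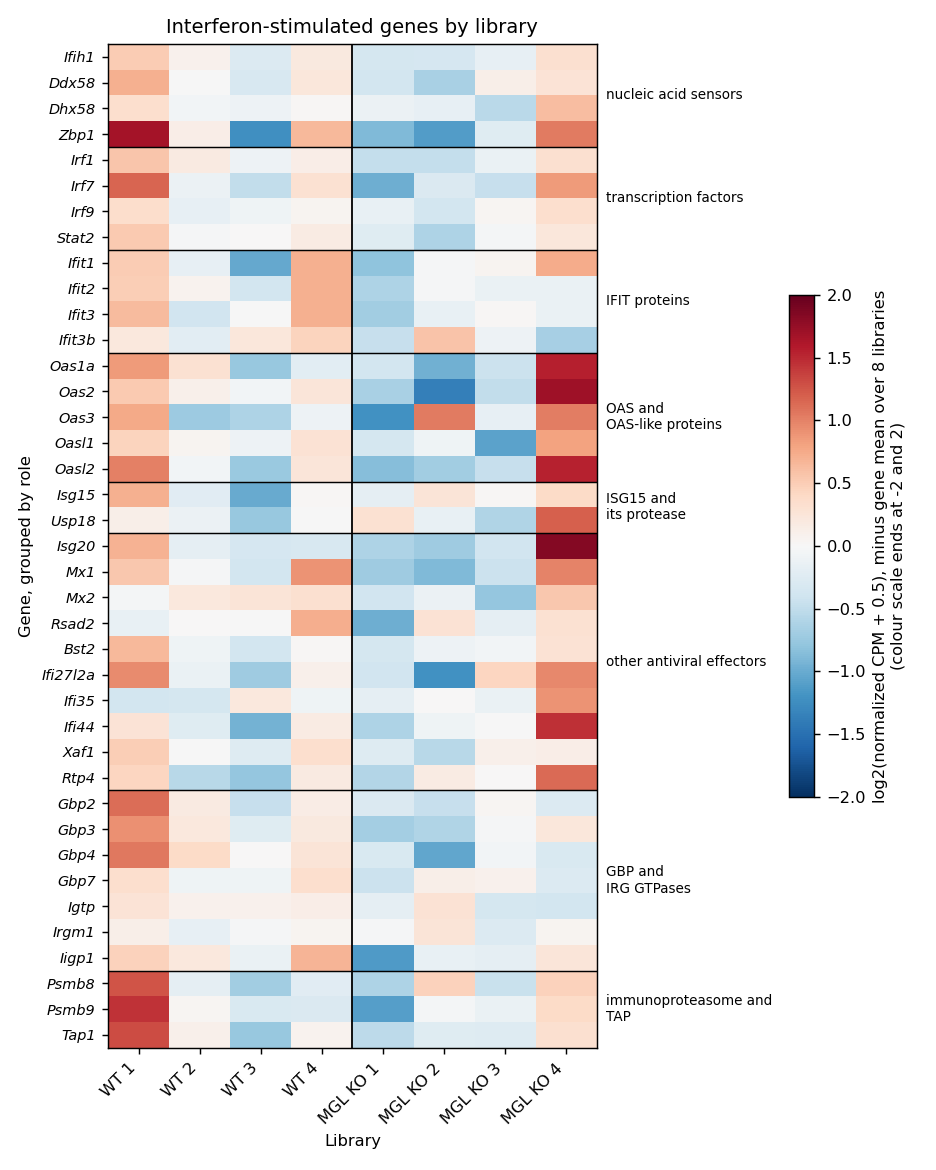
Colour gives log2(normalized CPM + 0.5) of each interferon-stimulated gene (rows, grouped by role) in each library (columns, WT left and MGL KO right of the line) minus the mean of that gene over the 8 libraries. The columns WT 1 and MGL KO 4 hold the highest library of 30 of the 39 genes, one on each side of the line.

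The nucleic acid sensors come first in the pathway. Ifih1 (MDA5) and Ddx58 (RIG-I, named Rigi in the GENCODE annotation) bind viral RNA in the cytosol, Dhx58 (LGP2) modulates both, and Zbp1 senses Z-form nucleic acid. Ifih1 read 8.70, 8.75, 9.99 and 14.2 normalized CPM in MGL KO and 16.1, 12.0, 9.20 and 12.8 in WT. Ddx58 read 9.55, 7.76, 13.6 and 15.2 in MGL KO and 20.8, 12.4, 9.93 and 14.7 in WT. For both genes WT 1 was the highest library and MGL KO 4 the next, and the groups overlapped. Zbp1 read 1.04, 0.81, 1.91 and 5.34 in MGL KO and 8.53, 2.63, 0.72 and 3.98 in WT, so that the highest and lowest libraries of all 8 were both WT. Its log2 fold change was -0.79 with an interval from -2.53 to 0.95, the widest interval among the members, and was -0.09 without WT 1 and -1.64 without MGL KO 4. Dhx58 ranged from 2.10 to 5.28 in MGL KO and from 3.02 to 4.30 in WT. The median log2 fold change of the 4 sensors was -0.30, and none passed the test.

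The transcription factors were the role whose members varied least between libraries of a group (median SD of log2 CPM 0.33). Stat2 and Irf9 are subunits of the complex that binds the ISRE, Irf7 amplifies type I interferon genes, and Irf1 is an early target that acts in the type II response. Irf1 read 12.1, 12.2, 15.5 and 21.5 normalized CPM in MGL KO and 25.4, 19.5, 15.8 and 18.8 in WT. MGL KO 1 to 3 lay below every WT library, and MGL KO 4 lay above 3 of the 4 WT libraries. Its log2 fold change was -0.37 (SE 0.22, interval -0.88 to 0.13), and -0.23 without WT 1. Stat2 read 22.1, 16.9, 25.7 and 30.9 in MGL KO and 37.9, 25.7, 26.6 and 29.5 in WT, and here too MGL KO 1 to 3 lay below every WT library, although MGL KO 3 and WT 2 were nearly equal. Irf7 read 3.74, 6.32, 5.55 and 14.6 in MGL KO and 18.1, 7.19, 5.39 and 9.78 in WT. Irf9, at 29.0 ± 6.22 in MGL KO and 30.4 ± 5.12 in WT (SD, n = 4), had a log2 fold change of -0.07 with an interval from -0.47 to 0.34. WT 1 was the highest library for all 4 factors, and MGL KO 4 was the next highest for all 4.

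The IFIT proteins bind viral RNA ends and hinder translation, and their genes lie together on chromosome 19. Ifit2 read 5.20, 8.12, 7.52 and 7.53 normalized CPM in MGL KO and 11.9, 8.73, 6.31 and 13.9 in WT (log2 fold change -0.53, SE 0.27). Ifit3 read 7.04, 10.5, 11.8 and 10.6 in MGL KO and 18.5, 8.85, 11.6 and 19.4 in WT (log2 fold change -0.55, SE 0.28). In both genes WT 4 and WT 1 were the high libraries. WT 3 lay among the MGL KO libraries in both, while WT 2 lay above them for Ifit2 and among them for Ifit3. Their adjusted p was 0.63 each by edgeR's quasi-likelihood test. Ifit1 spanned 2.45 to 8.09 in MGL KO and 2.04 to 7.95 in WT, with a log2 fold change of -0.07. Ifit3b was highest in MGL KO 2 (11.9) and lowest in MGL KO 4 (4.78), which sets it apart in order from its neighbour Ifit3.

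The OAS genes encode 2′-5′-oligoadenylate synthetases, which activate RNase L on double-stranded RNA, and Oasl1 and Oasl2 encode related proteins. This role varied most: the median SD of log2 CPM within a group was 1.00. Oas2 read 4.65, 2.62, 5.24 and 25.5 normalized CPM in MGL KO and 11.1, 8.10, 7.30 and 9.06 in WT. Oasl2 read 8.21, 9.20, 10.9 and 44.96 in MGL KO and 31.2, 14.6, 8.88 and 18.1 in WT. Oas1a read 1.90, 1.08, 1.79 and 8.54 in MGL KO and 5.08, 3.31, 1.31 and 2.15 in WT. In all 3 genes MGL KO 4 was the highest library and WT 1 the next, while the other 3 MGL KO libraries lay at the low end of the range. With all libraries the log2 fold changes were 0.10 for Oas2, 0.02 for Oasl2 and 0.18 for Oas1a, each with an interval that ran beyond 1 on both sides of 0. Without MGL KO 4 they were -1.08, -0.95 and -0.89, and without WT 1 they were 0.23, 0.41 and 0.57. Oasl1 spanned 0.43 to 2.92 in MGL KO and 1.31 to 2.18 in WT. Oas3 was the only OAS gene with its highest library elsewhere, at 3.34 in MGL KO 2 and 3.32 in MGL KO 4, and its lowest library had 5 counts.

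Isg15, a ubiquitin-like protein that is joined to other proteins, and Usp18, the protease that removes it and that also blocks the type I receptor, both had log2 fold changes above 0. Isg15 read 2.14, 3.07, 2.53 and 3.37 normalized CPM in MGL KO and 4.35, 2.05, 0.99 and 2.54 in WT (log2 fold change 0.16, SE 0.41). The groups overlapped over the whole MGL KO range. Usp18 read 8.94, 6.41, 4.50 and 16.97 in MGL KO and 7.75, 6.56, 4.01 and 7.11 in WT (log2 fold change 0.54, SE 0.40). Without MGL KO 4 its value was 0.06. Usp18 lies on chromosome 6 as Mgll does, 32.4 Mb away.

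Of the 10 other antiviral effectors, 4 had log2 fold changes above 0 and 6 below, with a median of -0.08 that was -0.41 without MGL KO 4, 0.20 without WT 1 and 0.07 without MGL KO 2. Isg20, an exonuclease that degrades viral RNA, read 5.27, 4.87, 6.29 and 31.0 normalized CPM in MGL KO and 13.7, 7.25, 6.51 and 6.58 in WT. Mx1, a dynamin-like GTPase active against influenza virus, read 0.98, 0.81, 1.29 and 4.33 in MGL KO and 3.01, 1.88, 1.38 and 4.04 in WT. For both genes 3 MGL KO libraries lay below all WT libraries and MGL KO 4 lay above all of them. Mx2, its paralog, read 1.04, 1.35, 0.68 and 2.42 in MGL KO and 1.45, 1.83, 1.91 and 2.02 in WT, the same arrangement at a lower level. Ifi44 ranged from 1.04 to 6.01 in MGL KO and from 0.72 to 2.34 in WT, and its log2 fold change of 0.67 (SE 0.58) was the highest of the members. Ifi35 ranged from 12.0 to 26.0 in MGL KO and from 10.5 to 15.98 in WT, with WT 1 lowest. Rsad2 (viperin, which makes a chain-terminating nucleotide) ranged from 2.45 to 6.69 in MGL KO and from 4.74 to 9.06 in WT. Bst2 (tetherin, which holds budding virus at the membrane) stood at 15.3 ± 2.89 in MGL KO and 16.9 ± 5.63 in WT (SD, n = 4). MGL KO 4 was the highest library for 7 of these 10 genes, all but Rsad2, Bst2 and Xaf1. Ifi27l2a, Xaf1 and Rtp4, also of this role, had log2 fold changes of -0.01, -0.30 and 0.45, each with an interval that included 0.

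The guanylate-binding proteins (GBP) and immunity-related GTPases (IRG) attack the vacuoles of intracellular microbes and are induced mainly by type II interferon. Their 7 genes had a median log2 fold change of -0.57, and 6 of the 7 values were below 0 (the other, Irgm1, changed sign to -0.0057 with upper quartile factors and to -0.041 with library size alone). Gbp4 read 4.84, 2.71, 5.86 and 4.83 normalized CPM in MGL KO and 13.2, 8.05, 6.11 and 7.37 in WT. All 4 MGL KO libraries lay below all 4 WT libraries, with MGL KO 3 and WT 3 as the closest pair. It was the only member whose groups did not overlap (3.30% of all tested genes were separated in this direction and 2.72% in the other). Its log2 fold change was -0.92 (SE 0.31, interval -1.63 to -0.22, unadjusted p = 0.016, adjusted p = 0.51 by edgeR's quasi-likelihood test). Without WT 1 the value was -0.65, and without both MGL KO 4 and WT 1 it was -0.67. When counts were scaled by library size alone, no member's groups were separated. Gbp4 overlaps Gbp8 and Gbp9 in the annotation, so reads there could be split between the 3 genes.

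Gbp2 read 11.1, 9.84, 14.1 and 11.2 normalized CPM in MGL KO and 30.4, 15.5, 9.86 and 15.3 in WT (log2 fold change -0.62, SE 0.31). Gbp3 read 7.29, 7.67, 11.8 and 14.0 in MGL KO and 22.9, 13.8, 10.1 and 13.7 in WT (log2 fold change -0.57, SE 0.30). In both genes WT 1 was the highest library by a wide margin, and without it the values were -0.23 for Gbp2 and -0.30 for Gbp3. Of the other WT libraries, WT 3 alone lay among those of MGL KO for Gbp2, and all 3 did for Gbp3. Iigp1 read 4.71, 9.84, 9.68 and 13.2 in MGL KO and 15.3, 12.7, 9.99 and 17.99 in WT (log2 fold change -0.58, SE 0.31, and -0.36 without MGL KO 1). Gbp7 and Igtp had log2 fold changes of -0.25 and -0.29 with intervals from -0.68 to 0.18 and from -0.70 to 0.12. Irgm1, which regulates the other IRG proteins, was the steadiest member: it read 22.3, 27.2, 18.7 and 23.5 in MGL KO and 24.5, 20.1, 22.3 and 23.6 in WT, with an interval from -0.29 to 0.32. Unlike the OAS genes, none of the 7 GBP and IRG genes was highest in MGL KO 4, where the summed level of the role was 85.9 against 69.6 to 85.2 in the other MGL KO libraries.

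Psmb8 and Psmb9 encode catalytic subunits of the immunoproteasome, and Tap1 encodes a subunit of the peptide transporter that loads MHC class I. The 3 genes are neighbours on chromosome 17, where the annotated Psmb9 and Tap1 overlap on opposite strands, so reads there cannot be told apart without strand. Tap1 read 13.3, 16.2, 16.03 and 24.2 normalized CPM in MGL KO and 48.4, 20.8, 11.2 and 20.4 in WT. Psmb9 read 2.94, 6.68, 6.23 and 9.05 in MGL KO and 19.5, 7.02, 5.46 and 5.54 in WT. Psmb8 read 2.51, 5.87, 2.90 and 5.90 in MGL KO and 10.5, 3.60, 2.37 and 3.46 in WT. WT 1 was the highest library for all 3 genes and the remaining WT libraries lay within or near the MGL KO range. The log2 fold changes were -0.53 for Tap1, -0.59 for Psmb9 and -0.22 for Psmb8, and without WT 1 they were -0.0023, 0.05 and 0.45. The 3 constitutive catalytic subunits of the proteasome (Psmb5, Psmb6 and Psmb7) had a median log2 fold change of 0.14.

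**Figure D2:**
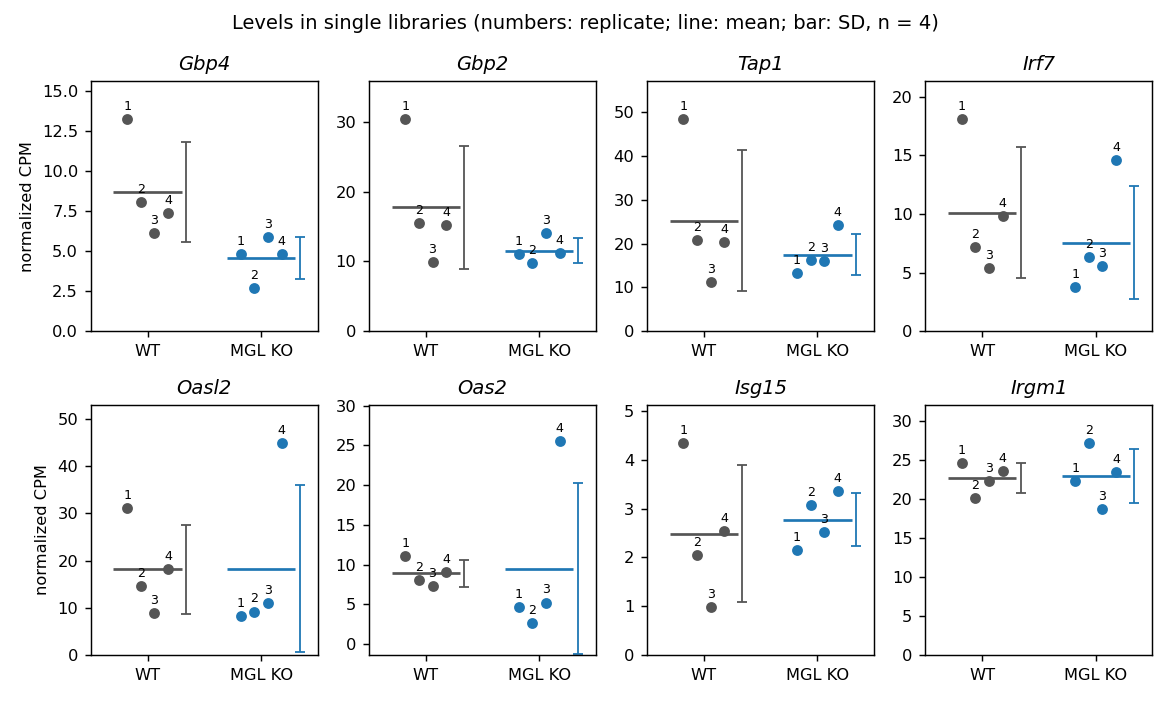
Normalized CPM of 8 interferon-stimulated genes in each library, with the replicate number above each point, the group mean as a line and the SD (n = 4) as a bar. Gbp4 is the gene whose groups are separated, WT 1 is highest for Gbp2, Tap1 and Irf7, MGL KO 4 is highest for Oasl2 and Oas2, and the 2 groups lie on each other for Isg15 and Irgm1.

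Across the 39 genes, WT 1 was the highest library for 16 (41.0%) and MGL KO 4 for 14 (35.9%), beside 14.9% and 18.8% of all tested genes. The same libraries were the 2 highest of the 8 in 22 of the 39 genes (56.4%), beside 9.50% of all tested genes. No member was highest in MGL KO 1, MGL KO 3, WT 2 or WT 3. MGL KO 1 was the lowest library for 12 members (30.8%, beside 7.59% of all tested genes), MGL KO 2 for 11 (28.2%, beside 29.4%) and WT 3 for 9 (23.1%, beside 15.5%), so that the count for MGL KO 2 was near that of all genes. The summed level of the 39 genes was 282.1, 318.4, 353.1 and 562.0 normalized CPM in MGL KO and 611.6, 371.7, 318.5 and 444.1 in WT. The highest sum of each group thus came from the library in which leukocyte markers were also highest: the summed leukocyte markers Ptprc, Cd52, Laptm5, Coro1a and Cd53 were 292.8 in WT 1 and 121.0 in MGL KO 4 against 46.6 to 93.2 in the others. The 7 T and NK cell markers in the table summed to 16.3 in WT 1, 4.89 in MGL KO 4 and at most 2.34 elsewhere, with Cd3e at 0 in MGL KO 1 and 2, and Ncr1, which marks NK cells, at 0 in MGL KO 1 to 3 and WT 3 and 4. The part of these cells in the levels of the interferon-stimulated genes was not tested.

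The summed level of 6 macrophage markers lay between 140.5 and 170.2 in MGL KO and between 145.9 and 421.9 in WT. All 6 had log2 fold changes below 0 (47.0% of all tested genes), with a median of -0.84, and 5 of the 6 had an unadjusted p under 0.05 by edgeR's quasi-likelihood test (4.29% of all tested genes in this direction), with the lowest adjusted p at 0.50. WT 1 had the highest sum, and without it the median was -0.45 and 2 of the 6 had an unadjusted p under 0.05 (3.18% of all tested genes). Endothelial markers (6 of 6 below 0, median -0.24) summed to 147.2 to 263.0 in MGL KO and 202.7 to 265.1 in WT. Of these 6, 2 had an unadjusted p under 0.05 by the same test (4.29% of all tested genes in this direction). MGL KO 2 had the lowest sum, and without it 4 of the 6 were below 0 with a median of -0.16. The part of macrophages and endothelium in the GBP, IRG and other values was not tested. Y-linked transcripts were present in every library at 185.6 to 223.7 normalized CPM, so no library came from female tissue alone.

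**Figure D3:**
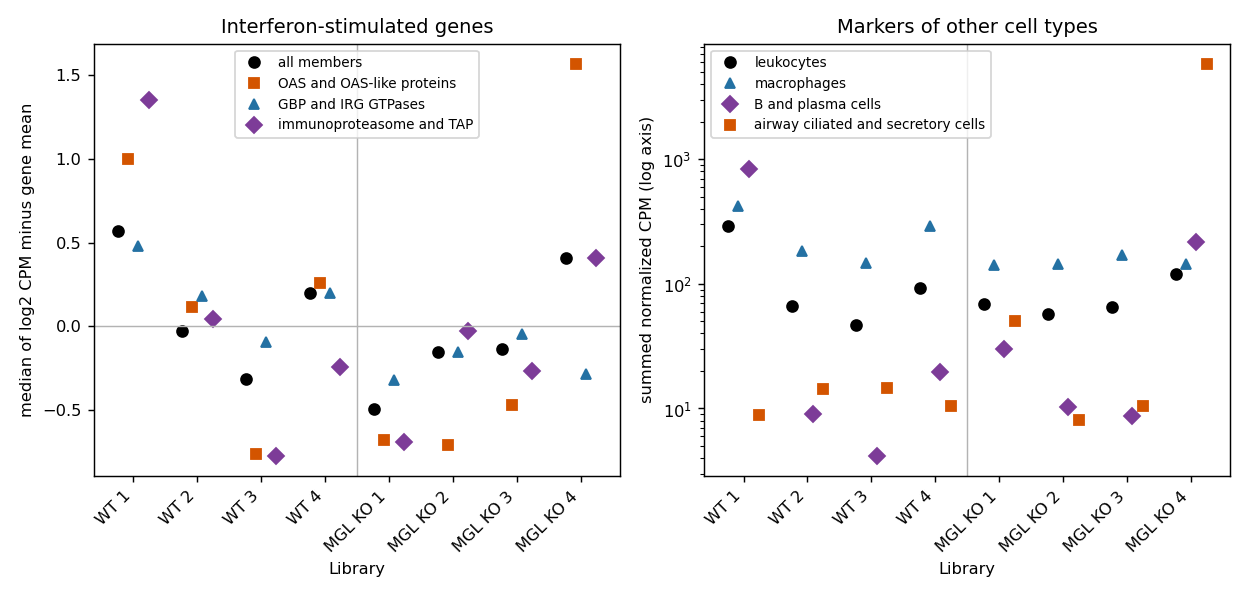
Left, median deviation of log2 CPM from each gene's mean over the 8 libraries, for all 39 interferon-stimulated genes and for 3 roles. Right, summed normalized CPM (log axis) of 4 marker lists in the same libraries. WT 1 and MGL KO 4 are the 2 highest libraries for the 39 genes and for B and plasma cell markers, and the GBP and IRG genes in MGL KO 4 stay below 0.

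The comparison was repeated without these libraries. Without MGL KO 4, 34 of the 39 log2 fold changes were below 0 with a median of -0.47 (all tested genes -0.01), 10 members had an unadjusted p under 0.05 in the lower direction (5.06% of all tested genes), and 9 had separated groups (5.78%). Those 10 were Irf1, Irf7, Stat2, Oas2, Oasl2, Mx1, Mx2, Gbp3, Gbp4 and Iigp1, and none passed after adjustment (0.0133% of all tested genes did), with adjusted p from 0.43 to 0.53 by edgeR's quasi-likelihood test. Oas2 had the lowest p of them at 0.0044 unadjusted, with 4.11 ± 1.36 normalized CPM in 3 MGL KO libraries against 8.75 ± 1.61 in 4 WT libraries (SD) in that edgeR fit. MGL KO 4 was the highest library for Oas2, so leaving it out lowers the MGL KO mean and that p is a description only. With all libraries the log2 fold change of Oas2 was 0.10 (unadjusted p = 0.87 by edgeR's quasi-likelihood test). Without WT 1, 20 of the 39 values were below 0 with a median of -0.0023 (all tested genes 0.03), no member passed the unadjusted threshold in the lower direction (3.18% of all tested genes), none passed after adjustment (0.0134%), and Gbp4 alone had separated groups (4.75%). Leaving out MGL KO 2 gave 3 members with an unadjusted p under 0.05 in the lower direction (4.00% of all tested genes), 26 of 39 values below 0 and a median of -0.19. Leaving out WT 2 gave 2 such members (3.35%, near the share of all genes), and leaving out WT 3 gave 4 (4.38%). With all libraries, limma-voom with quality weights gave 8 (5.93%) and scaling by library size alone gave 2 (3.69%).

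Without both libraries, 32 of the 39 values were below 0 with a median of -0.26 (all tested genes 0.01). Irf1, Oas2, Mx1 and Mx2 then had an unadjusted p under 0.05 in the lower direction (3.57% of all tested genes), and 9 members had separated groups (7.71%). These 9 were Dhx58, Irf1, Stat2, Oas2, Isg20, Mx1, Mx2, Gbp4 and Iigp1. Mx2, for example, stood at 0.99 ± 0.33 normalized CPM in MGL KO and 1.86 ± 0.10 in WT (SD, 3 libraries each), a log2 fold change of -0.92 (SE 0.36). No member passed after adjustment (0.0135% of all tested genes). The order of the roles moved with the libraries. The GBP and IRG median was -0.61 without MGL KO 4, -0.24 without WT 1 and -0.21 without both, the IFIT median -0.48, -0.35 and -0.34, and the OAS median -0.90, 0.41 and -0.55. The sensor median was -0.47, -0.09 and -0.28 in the same 3 fits, that of the transcription factors -0.53, -0.09 and -0.39, and that of the immunoproteasome and TAP genes -0.73, 0.05 and -0.19. That of the other antiviral effectors was -0.41, 0.20 and -0.15, and that of Isg15 and Usp18 lay above 0 in each, at 0.05, 0.61 and 0.31. Without MGL KO 2 the medians were -0.18 (sensors), -0.23 (transcription factors), -0.58 (IFIT) and 0.28 (OAS). In the same fit they were 0.39 (Isg15 and Usp18), 0.07 (other antiviral effectors), -0.46 (GBP and IRG) and -0.50 (immunoproteasome and TAP). The median of all members was -0.47 without MGL KO 4 and -0.26 without both libraries. Without WT 1 it was -0.0023, with 20 of the 39 values below 0, so that fit showed no common direction. The size of the difference depended on which of WT 1 and MGL KO 4 was in the fit.

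**Figure D4:**
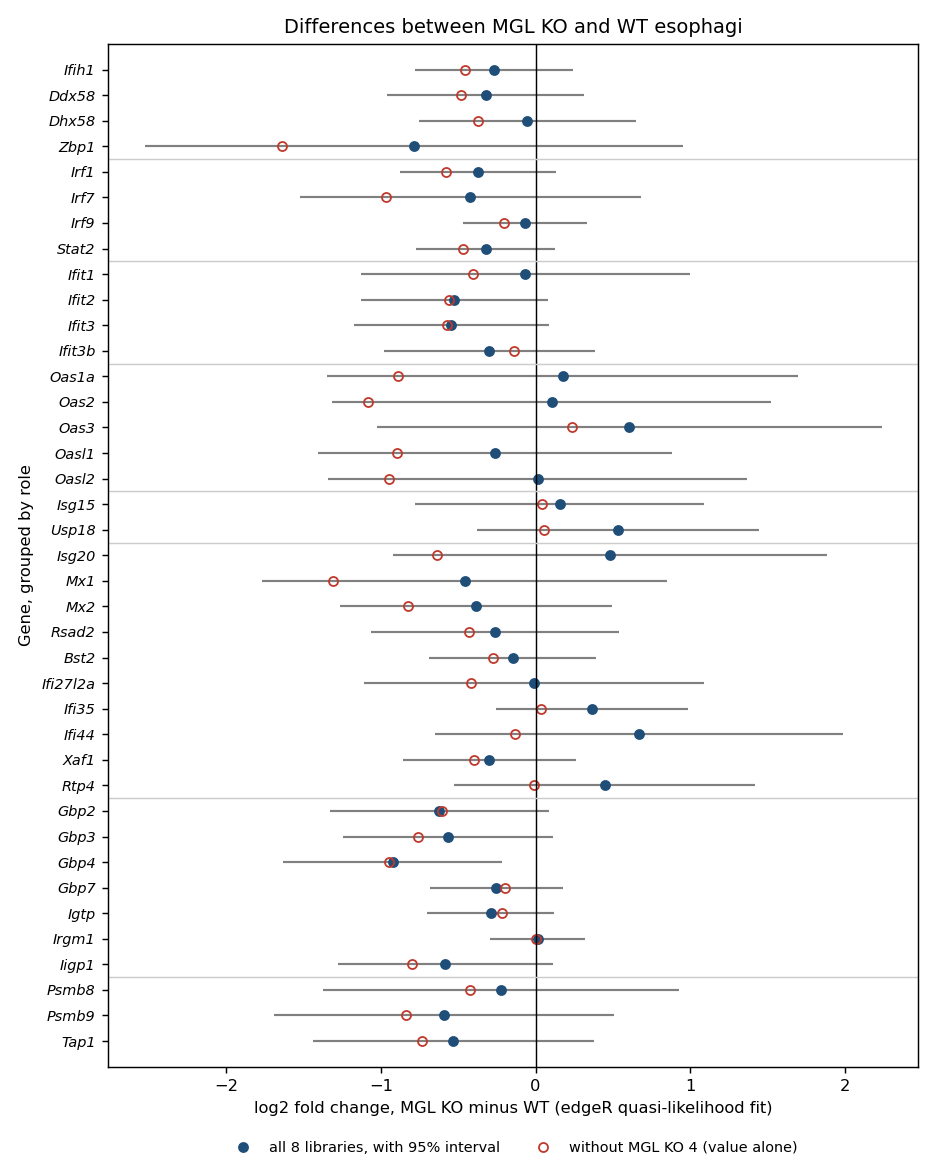
Log2 fold change (MGL KO minus WT) of each interferon-stimulated gene from the edgeR quasi-likelihood fit, with 95% interval (filled points and bars, all 8 libraries), and the value without MGL KO 4 (open circles). The interval of Gbp4 alone lies on one side of 0. The open circles of Zbp1, Oas1a, Oas2, Oasl1, Oasl2, Isg20, Mx1 and Ifi44 lie well to the left of the filled ones.

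The genes also differed in their levels within the tissue. Divided by annotated exon length, the WT mean was highest for Ifi27l2a (19.8 ± 10.02 normalized CPM per kb), Bst2 (13.9 ± 4.64), Gbp2 (6.94 ± 3.44), Irf9 (5.24 ± 0.88) and Ifit3 (5.06 ± 1.79) (SD, n = 4). The ranges of mean ± SD overlapped for each pair of neighbours in that order. Oas3 (0.19 ± 0.13) and Ifi44 (0.27 ± 0.12) were lowest per kb. In MGL KO the same 2 genes led, Ifi27l2a at 19.6 ± 11.9 and Bst2 at 12.6 ± 2.38 normalized CPM per kb.

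The genes that produce and carry the interferon signal were read in the same fit. Of 21 listed interferon genes, none had enough counts to be tested, 16 were at 0 in all 8 libraries, and all 21 together reached at most 0.171 normalized CPM in a library. Ifna7, Ifna13, Ifnab, Ifnz and Ifng had 1 or 2 counts in some libraries, and Ifnb1 was at 0 throughout, so interferon transcripts were not detectable at this depth beyond a few counts. The 10 receptor and kinase genes had a median log2 fold change of -0.08, and none passed even the unadjusted threshold (8.65% of all tested genes did in either direction). Ifnar1, the first chain of the type I receptor, stood at 31.3 ± 2.85 normalized CPM in MGL KO and 34.6 ± 6.72 in WT, and Ifngr1, the ligand-binding chain of the type II receptor, at 52.0 ± 6.91 and 49.2 ± 10.4 (SD, n = 4). Ifnar2 and Ifngr2 had log2 fold changes of -0.41 and 0.22.

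Of 102 tested genes of the pathway outside the 39, counted over all lists, none passed after adjustment, and 29 had log2 fold changes above 0 and 73 below. The lowest adjusted p was that of Socs3, which encodes a feedback inhibitor of JAK kinases best known in IL-6 signaling (55.3 ± 8.43 normalized CPM in MGL KO and 37.9 ± 3.76 in WT, SD, n = 4; log2 fold change 0.54, SE 0.13, adjusted p = 0.36 by edgeR's quasi-likelihood test). All 4 MGL KO libraries lay above all 4 WT libraries for Socs3. Next came Gbp5, another guanylate-binding protein, at 3.25 ± 0.76 in MGL KO and 7.79 ± 3.18 in WT (log2 fold change -1.25, SE 0.32, adjusted p = 0.43 by the same test), with separated groups. DESeq2 gave both an adjusted p under 0.05 (0.025 for Socs3 and 0.039 for Gbp5). Gbp9 and Gbp8, which overlap Gbp4, had log2 fold changes of -0.93 and -1.59. Gch1, the first enzyme of tetrahydrobiopterin synthesis, stood at 11.2 ± 5.29 in MGL KO and 5.93 ± 0.94 in WT (log2 fold change 0.92, SE 0.34, adjusted p = 0.52 by edgeR's quasi-likelihood test), with overlapping groups. Against 4.29% lower and 4.35% higher of all tested genes at the unadjusted threshold, the 18 tested other type II interferon-induced genes had a median of -0.46 with 3 lower and 1 higher, the 35 other type I interferon-induced genes a median of -0.16 with 1 lower (Mndal) and 1 higher (Znfx1), no more than the share of all genes, and the 14 sensing genes a median of -0.18 with 1 lower (Aim2). The 16 genes of MHC class I and its assembly had a median of -0.28 with none past it, and their summed level was also highest in WT 1 (2828) and MGL KO 4 (2221), against 1160 to 1519 in the other libraries.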

How the data were processed

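RNA from frozen mouse esophagus was sequenced by a service provider after poly(A) selection. The authors checked reads with FastQC (0.11.9), trimmed adapters with Cutadapt, aligned to GRCm39 with STAR (2.7.10b) and deposited raw counts per gene symbol and library. The annotation, counting tool and use of strand are not given in the sources used here. Library totals differ, and no deposited count was normalized or rounded.

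Genes were kept by filterByExpr at a minimum count of 10 and compared by edgeR's quasi-likelihood test (edgeR 4.0.16, R 4.3.3; TMM factors; genotype as the only term), with Benjamini-Hochberg adjustment over all 14864 kept genes and a threshold of 0.05. Standard errors were taken from the fold change on the log2 scale over the root of F. The exact test of edgeR, which the study used, was one alternative. Others were DESeq2 1.42.0, limma 3.58.1 (voom with quality weights), other scalings and filters, covariates and leaving out libraries. The fit without both MGL KO 4 and WT 1 was added after seeing the data. Groups came from the sample labels. The members and all gene lists were chosen with earlier results of these data known. Named genes were every member, Mgll, the receptors, the detected interferons, markers, and up to 4 genes per pathway list by lowest p. Every pair of libraries in a group differed by more than sampling noise (chi-square per degree of freedom 13.6 or more). On simulated data for MGL KO against WT (14864 genes), 41.8% of genes changed by a log2 size of 1 and 84.3% of those changed by 2 were recovered, and 4.51% of calls were false. The changed genes were drawn at random from all kept genes above a low level, each with noise of its own. The members varied more within a group (median SD of log2 CPM 0.54, against 0.28 over all tested genes), and their recovery was not simulated. Gene positions and exon lengths are from GENCODE on GRCm39. Promoter windows are from RefSeq. A gene that the rule would also name is not reported here.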

Additional observations from a re-analysis of the deposited data

Results flagged for a closer look

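In 11 of 78 groups of 4 member values, 1 library lay far from the other 3 by Dixon's criterion. For normally distributed values chance alone gives about 1 in 20 groups, or 3.9. The values compared were CPM without a log, for which that rate need not hold, and all 11 were on the high side. MGL KO 4 was the high library in 7 of the 11: Oas1a (8.54 normalized CPM, next 1.90), Oas2 (25.5, next 5.24), Oasl2 (44.96, next 10.9), Isg20 (31.0, next 6.29), Mx1 (4.33, next 1.29), Ifi35 (26.0, next 13.8) and Ifi44 (6.01, next 1.85). WT 1 was the high library in 3, for Isg20 (13.7, next 7.25), Psmb8 (10.5, next 3.60) and Psmb9 (19.5, next 7.02). WT 4 was the high library for Rsad2 (9.06, next 5.31). The genes of a group share their libraries and are not independent.

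The same criterion marked 7 of 20 marker sums (10 lists in 2 groups each). In MGL KO 4 these were airway ciliated and secretory cells (5858 normalized CPM, next 50.8), B and plasma cells (218.4, next 30.0) and T and NK cells (4.89, next 1.04). In WT 1 they were B and plasma cells (828.3, next 19.7), T and NK cells (16.3, next 2.34) and dendritic cells (25.6, next 14.0). Macrophage markers were marked in MGL KO 3 (170.2, next 144.1). Their part in the values of the interferon-stimulated genes was not tested.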

How the results depend on the processing

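No member had an adjusted p under 0.05 under any of 20 alternatives (lowest 0.20, Gbp4 with DESeq2). The median over members ran from -0.47 to -0.0023 with 1 library left out and from -0.40 to -0.25 otherwise. Of 776 member values, 726 kept their direction and 50 reversed, in 19 members. The count of all genes passing (7) became 64 with the exact test on kept genes, 42 with it on all genes, 137 with DESeq2, 25 with voom weights, 2 without a filter, 3 with a Y-linked covariate, 2 without both MGL KO 4 and WT 1, and 2 to 5 with 1 library left out. Members lower at an unadjusted p under 0.05 (1) became 8 with voom weights (5.93% of all tested genes), 2 with library size alone (3.69%), 4 without both libraries (3.57%), and 0 to 10 with 1 left out (3.06% to 5.06%). DESeq2 passed 2 pathway genes.

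With the replicate number as a block, 2 genes passed, and Oas1a, Oas2 and Oasl2 stood at -0.15, -0.48 and -0.23. Same-numbered libraries did not deviate together (correlations -0.14, -0.28, -0.14 and 0.08). The labels do not say whether they share more than a number, and these correlations cannot decide it, because differences in tissue content between libraries enter them. With voom weights the reversed values were -0.37 (Oas1a), -0.56 (Oas2), -0.30 (Oas3), -0.55 (Oasl2), -0.12 (Isg20), -0.0050 (Ifi44) and -0.068 (Irgm1). With the Y-linked covariate they were -0.23, -0.39 and -0.38 (Oas1a, Oas2, Oasl2), with upper quartile factors -0.0090 (Oasl2) and -0.0057 (Irgm1), and with library size alone -0.041 (Irgm1). Without both libraries they were -0.50 (Oas1a), -0.95 (Oas2), -0.55 (Oasl2), -0.31 (Isg20), -0.042 (Ifi35) and 0.24 (Psmb8). The cause was not tested.

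With 1 library left out, the values that changed sign ranged from -0.28 to 0.10 (Bst2), -0.37 to 0.12 (Dhx58), -0.42 to 0.38 (Ifi27l2a), -0.13 to 0.94 (Ifi44), -0.40 to 0.21 (Ifit1), -0.96 to 0.019 (Irf7), -0.21 to 0.052 (Irf9), -0.072 to 0.10 (Irgm1), -0.10 to 0.57 (Isg15), -0.64 to 0.81 (Isg20), -0.89 to 0.57 (Oas1a), -1.08 to 0.41 (Oas2), -0.90 to 0.043 (Oasl1), -0.95 to 0.41 (Oasl2), -0.44 to 0.45 (Psmb8), -0.84 to 0.050 (Psmb9), -0.0087 to 0.70 (Rtp4). With 4 libraries a group, differences smaller than the intervals given were not detectable.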
